A study of Mus musculus with 12 samples.

Results

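The genes described here encode the proteins of the cytosolic and mitochondrial ribosomes. They were taken by name from the genes listed in the 4 deposited comparison tables: protein-coding genes whose symbols begin with Rpl, Rps, Mrpl or Mrps and a digit, without the Rps6k kinases. Of 9338 genes listed in any table, 38 fitted this rule, namely 11 cytosolic (5 Rpl, 6 Rps) and 27 mitochondrial (17 Mrpl, 10 Mrps). A table holds only genes with an unadjusted p under 0.05 in the authors' own test, here called listed, so every one of these genes had already differed between the groups of its table. GENCODE release M21 holds 166 protein-coding genes with such names, 88 cytosolic and 78 mitochondrial, and those outside the 38 were not analysed here.

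RNA was sequenced from lung cells captured with beads against CD31, an adhesion molecule of endothelial and some blood cells, in 12 male C57Bl/6J mice in 4 groups of 3. All mice were TET2fl/fl and received tamoxifen at 40 mg/kg on 3 days when 6 to 8 weeks old. TET2 KO mice also carried Cdh5-CreERT2, in which a vascular endothelial promoter drives the recombinase, and WT mice did not. From 1 week after tamoxifen they ate chow (13% of energy from fat) or a high-fat diet (HFD, 60%) for 20 weeks, and the study's methods give an age of 30 weeks. The groups are thus WT chow, TET2 KO chow, WT HFD and TET2 KO HFD, with 1 library for each mouse. Reads on genes were 43.8, 36.7 and 39.0 M (M for 1000000 reads) in WT chow and 42.7, 41.4 and 39.6 M in TET2 KO chow. On HFD they were 56.8, 39.6 and 39.2 M in WT and 41.9, 39.3 and 38.1 M in TET2 KO. Tet2 was listed only for diet in WT, at 4296, 4463 and 4750 normalized counts on HFD, against 3326, 3630 and 3642 on chow, so its level in TET2 KO cells was not analysed here and the genotype labels were not checked with it.

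A ribosome has a large and a small subunit, each built of ribosomal RNA and many proteins. Cytosolic ribosomes translate nuclear mRNAs, and their protein mRNAs are among the most abundant of any cell. Mitochondrial ribosomes have their own set of nuclear-encoded proteins, are assembled on the mitochondrially encoded rRNAs mt-Rnr1 and mt-Rnr2, and make core subunits of the respiratory chain.

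The listed genes were unevenly spread over the comparisons. No ribosomal protein gene was among the 1298 genes that the genotype table on chow listed. The diet table of WT mice had 30 among 7330 listed genes, TET2 KO against WT on HFD had 15 among 3939, and HFD against chow in TET2 KO had 4 among 1628. Tables of different length cannot be compared by these numbers alone. In all, 27 genes stood in 1 table and 11 in 2.

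The DNA before the start is shown for 6 mitochondrial genes, in windows that lie wholly outside the genes as the tables place them. RefSeq promoters (GRCm38.p6) were matched by symbol for 29 of the 38 genes. The letters CCGGAAG, the core of sites bound by ETS transcription factors, stood on either strand within the last 80 bases before the start in 9 of these 29 genes. They were in 27.3% of the members' 33 windows and in 4.04% of 32851 windows of all genes. Also scanned, over a longer stretch before the start, were letters of NRF1, YY1, SP1, CCAAT and TATA sites. A run of at least 5 C or T was sought within 5 bases of the start. In this order, these sites and the run stood in 0, 4, 48, 16, 12 and 20% of the 25 mitochondrial windows. The 8 cytosolic windows held them in 0, 0, 37.5, 12.5, 0 and 50%. Of all windows, 0.782, 1.56, 32.7, 33.8, 12.4 and 18.7% held them. Over that longer stretch, CCGGAAG stood in 24% of the mitochondrial, 50% of the cytosolic and 6.91% of all windows. A match of letters is a description and not a site shown to be bound. Capitals mark CCGGAAG or its reverse complement in the 80 bases before the start, written 5′ to 3′ on the gene's strand. Mrpl58 (chr11:115403672-115403751, plus strand), Mrpl34 (chr8:71464846-71464925, plus), Mrpl52 (chr14:54426829-54426908, plus) and Mrps27 (chr13:99344706-99344785, plus) hold the letters, beginning 17, 37, 47 and 48 bases before the start. Mrpl44 (chr1:79775938-79776017, plus) and Mrpl42 (chr10:95501950-95502029, minus) lack them in this window and are shown for contrast. All 6 genes, with or without the letters, were higher on HFD in WT, and a part of the letters in these values was not tested.
Mrpl58: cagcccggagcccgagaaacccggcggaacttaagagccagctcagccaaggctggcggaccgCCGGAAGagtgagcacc
Mrpl34: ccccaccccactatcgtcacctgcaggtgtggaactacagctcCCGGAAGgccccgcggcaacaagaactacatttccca
Mrpl52: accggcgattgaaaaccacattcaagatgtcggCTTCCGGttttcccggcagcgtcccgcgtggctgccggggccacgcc
Mrps27: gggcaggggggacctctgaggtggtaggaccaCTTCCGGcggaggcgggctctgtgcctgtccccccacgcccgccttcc
Mrpl44: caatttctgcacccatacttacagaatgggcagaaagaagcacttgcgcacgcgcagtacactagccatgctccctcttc
Mrpl42: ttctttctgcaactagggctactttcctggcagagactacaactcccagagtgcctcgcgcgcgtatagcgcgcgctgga

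In WT mice, 26 of the 30 listed ribosomal protein genes were at higher levels on HFD than on chow, among them 7 of 8 cytosolic and 19 of 22 mitochondrial genes. Most differences were small: the median log2 fold change was 0.36 for cytosolic and 0.35 for mitochondrial genes. With the expression level trend removed these were 0.13 and 0.19, and with the gene length trend removed 0.99 and 0.52. Of the listed protein-coding genes as a whole, 57.5% were higher on HFD, with a median log2 fold change of 0.36, and the share was 64.1% among those with a mean FPKM of 1 to 10 and 68.2% among those of 100 or more. Since listing required a difference, neither the counts nor the medians test the group. By edgeR's quasi-likelihood test with Benjamini-Hochberg adjustment, 2 of the 30 genes, Mrpl58 and Rps12, passed an adjusted p under 0.05, beside 18.7% of all listed genes, and 27 had an unadjusted p under 0.05, beside 91.6% of all listed genes, most of which must pass because listing used such a p. The 3 HFD and 3 chow values did not overlap in 29 of the 30, beside 86.5% of all listed genes. The number called was 0 without WT chow replicate 2 or any single WT HFD replicate and 1 without WT chow replicate 1 or 3, while DESeq2 called 15, beside 62.6% of all listed genes, and limma called 6, beside 29%. In each of these 3 tests the share of members called was under that of all listed genes. The number with an unadjusted p under 0.05 was 12 without WT chow replicate 2, WT chow replicate 3 or WT HFD replicate 2, and 16 without WT HFD replicate 3. With a library left out, the shares of all listed genes were not counted, so these drops are not shown to be particular to the members.

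**Figure D1:**
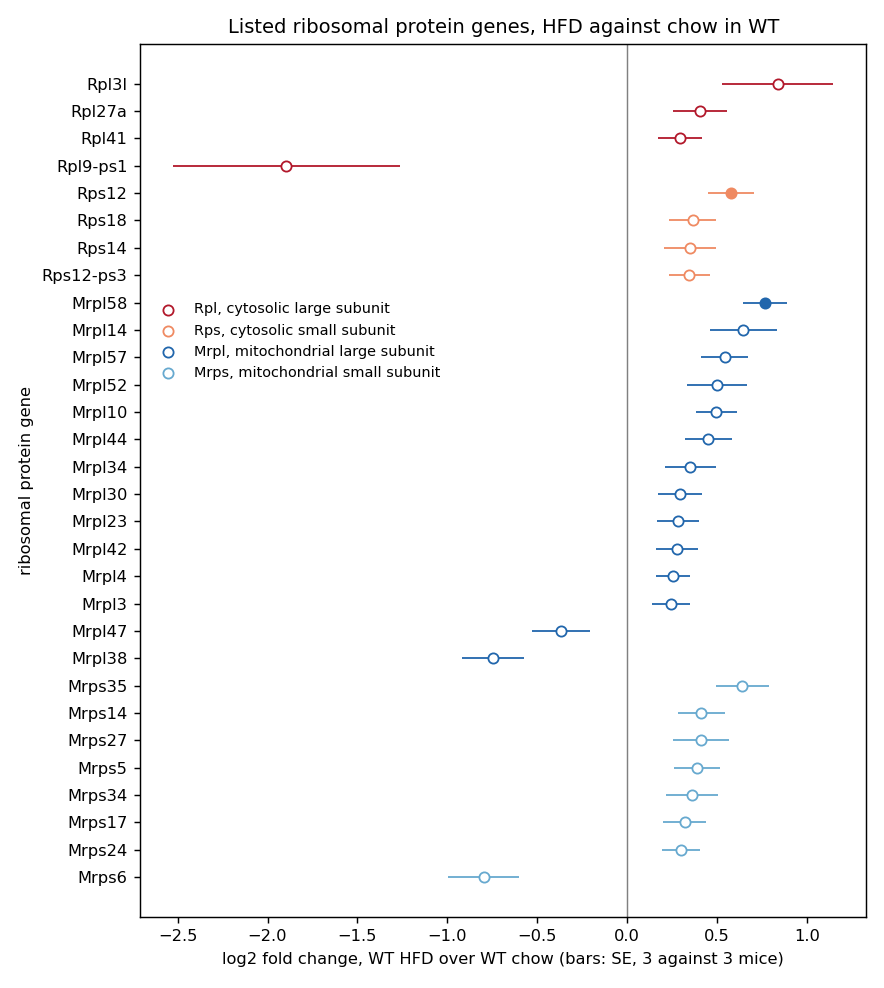
Log2 fold change (x axis, HFD over chow, WT mice) of each of the 30 listed ribosomal protein genes (y axis), with bars of 1 standard error from 3 against 3 mice, coloured by ribosomal subunit and filled where the adjusted p was under 0.05. The values of 26 genes lie right of 0, and only Mrpl58 and Rps12 are filled.

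Mrpl58 (ENSMUSG00000018858, chr11:115403752-115412674, mm10) encodes a large-subunit protein of the mitochondrial ribosome related to release factors, which frees peptides from stalled ribosomes. It had 853, 749 and 786 normalized counts (reads divided by the library's size factor) in the WT HFD libraries and 480, 473 and 451 in WT chow. The lowest HFD value was far above the highest chow value, and Mrpl58 rose by 0.77 (log2, SE 0.12, adjusted p = 0.0366, edgeR, higher in 3 of 3 HFD libraries). Its promoter is the first of those printed above.

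The other mitochondrial large-subunit genes were mostly higher on HFD without passing the adjusted test. For Mrpl14, a protein of the large subunit that binds the assembly factor Malsu1, the HFD libraries held 590, 548 and 816 normalized counts and the chow libraries 379, 419 and 450. The groups did not overlap, but HFD replicate 3 stood apart, and the log2 fold change was 0.65 (SE 0.19, edgeR adjusted p = 0.0773). Mrpl10, of the ribosomal stalk that contacts translation factors, had 1041, 1010 and 996 on HFD against 771, 679 and 712 on chow (log2 fold change 0.49, SE 0.11, edgeR adjusted p = 0.0514). The groups were separate in all 14 Mrpl genes, beside the 86.5% of all listed genes given above. The log2 fold changes of the 12 higher ones ran from 0.24 in Mrpl3, near the catalytic centre, to that of Mrpl58.

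Mrpl38 and Mrpl47 went the other way. Mrpl38, a large-subunit protein, had 1379, 1578 and 1422 normalized counts on HFD, against 1894, 2956 and 2494 on chow. The chow libraries were all higher, and also more spread, at a log2 fold change of -0.75 (SE 0.17, edgeR adjusted p = 0.0537). Mrpl47 had 266, 277 and 219 on HFD and 324, 346 and 314 on chow (log2 fold change -0.37, SE 0.16, edgeR adjusted p = 0.193).

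Of the 8 mitochondrial small-subunit genes, 7 were higher on HFD. Mrps35 had 665, 593 and 546 normalized counts on HFD, against 388, 423 and 347 on chow. The groups were well separated, with a log2 fold change of 0.64 (SE 0.15, edgeR adjusted p = 0.0533). Mrps14 had 674, 787 and 754 on HFD against 520, 600 and 544 on chow (log2 fold change 0.41, SE 0.13, edgeR adjusted p = 0.0924). Mrps6 was the exception: it had 322, 350 and 382 on HFD and 462, 722 and 649 on chow, so all chow libraries were higher (log2 fold change -0.80, SE 0.20, edgeR adjusted p = 0.0580). Mrps27, a pentatricopeptide-repeat protein of the small subunit, had a log2 fold change of 0.41 (SE 0.15).

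Among the cytosolic small-subunit genes, Rps12 (ENSMUSG00000061983, chr10:23785183-23787275, mm10) passed the test. Its normalized counts were 10270, 12564 and 10545 on HFD, against 7920, 6893 and 7560 on chow. Every HFD library was above every chow library, and Rps12 rose by 0.58 (log2, SE 0.13, edgeR adjusted p = 0.0474, higher in 3 of 3 HFD libraries). The same order held for Rps18 and Rps14, proteins of the small subunit's head and platform. Rps18 had 19992, 25390 and 21541 on HFD against 18687, 16719 and 16602 on chow (log2 fold change 0.36, SE 0.13, edgeR adjusted p = 0.126). Rps14 had 25836, 31993 and 26326 against 24342, 19383 and 22278 (log2 fold change 0.35, SE 0.14, edgeR adjusted p = 0.165). In each of these 3 genes, WT HFD replicate 2 was the highest library of the 6.

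Rps12-ps3 is named as a pseudogene though annotated as protein-coding. Its longest transcript of 494 bases matched an Rps12 transcript at 100% of the aligned bases, so reads cannot be assigned to either with certainty. Its values were 2460, 2925 and 2881 normalized counts on HFD, against 2294, 2096 and 2119 on chow (log2 fold change 0.34, SE 0.11, edgeR adjusted p = 0.103).

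In the cytosolic large subunit, Rpl27a had 17320, 22630 and 18275 normalized counts on HFD, against 16230, 12964 and 14787 on chow. The groups were separate but close, at a log2 fold change of 0.40 (SE 0.15, edgeR adjusted p = 0.132). Rpl41, the smallest ribosomal protein, had 15629, 19338 and 18903 on HFD against 14187, 15091 and 14722 on chow (log2 fold change 0.29, SE 0.12, edgeR adjusted p = 0.175). Per length, the highest levels among the listed genes were the mean FPKM (reads per kilobase and M reads) over the 6 libraries of Rps14 (432), Rpl41 (334) and Rps18 (190). The mitochondrial genes were far lower, with a median of 4.92 FPKM against 133 for the cytosolic ones.

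Rpl3l and Rpl9-ps1 rested on few reads. Rpl3l, the paralog of Rpl3 that is known from heart and skeletal muscle, had 55.4, 89.9 and 104 normalized counts on HFD, against 40.0, 44.2 and 54.8 on chow. HFD replicate 1 was barely above the highest chow library, and the log2 fold change was 0.84 (SE 0.31, edgeR adjusted p = 0.132). Its aligned transcript stretch was 75.3% identical to Rpl3. Rpl9-ps1, another pseudogene-named gene (94.8% identity to Rpl9 where aligned), had 7.38, 7.40 and 18.2 on HFD and 14.3, 50.9 and 57.0 on chow. These groups overlapped, and the log2 fold change was -1.89 (SE 0.63, edgeR adjusted p = 0.103).

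On HFD, 14 of the 15 listed ribosomal protein genes were at lower levels in TET2 KO than in WT cells, all 14 of them mitochondrial, with a median log2 fold change of -0.42. Of the listed protein-coding genes, 57.6% were lower, with a median of -0.40. Among those with a mean FPKM of 1 to 10, where the median of the 14 genes lay (4.52 FPKM), 67.7% were lower, with a median of -0.47. No member passed an adjusted p under 0.05 in edgeR, as no listed gene did (0%). An unadjusted p under 0.05 was reached by 10 of the 15 members, beside 82.3% of all listed genes. DESeq2 called 1 member, Mrpl58 (adjusted p = 0.0381), beside 14.6% of all listed genes, and limma called 0, as it did of all listed genes. The groups did not overlap in any of the 15, beside 74.7% of all listed genes. The number with an unadjusted p under 0.05 was 4 without TET2 KO replicate 1 or without WT replicate 1 or 2, 3 without TET2 KO replicate 2 or WT replicate 3, and 12 without TET2 KO replicate 3. Shares of all listed genes with a library left out were not counted here either.

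Mrpl58 had 429, 468 and 607 normalized counts in TET2 KO HFD and 847, 748 and 781 in WT HFD, a log2 fold change of -0.66 (SE 0.17, edgeR adjusted p = 0.237). Mrpl14 had 270, 420 and 470 in TET2 KO and 585, 548 and 811 in WT (log2 fold change -0.75, SE 0.25, edgeR adjusted p = 0.246). In both genes TET2 KO replicate 1 was the lowest library and replicate 3 the nearest to WT. Mrpl36, a small protein of the large subunit, showed the same order with 404, 570 and 608 in TET2 KO against 744, 757 and 814 in WT (log2 fold change -0.55, SE 0.18, edgeR adjusted p = 0.244).

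For the small subunit, Mrps35 had 373, 421 and 514 normalized counts in TET2 KO and 660, 593 and 543 in WT (log2 fold change -0.46, SE 0.17, edgeR adjusted p = 0.257). Mrps14 had 469, 585 and 615 against 669, 786 and 749 (log2 fold change -0.40, SE 0.16, edgeR adjusted p = 0.268). Mrps33 had 357, 440 and 424 against 513, 496 and 591 (log2 fold change -0.39, SE 0.16, edgeR adjusted p = 0.270). TET2 KO replicate 1 was again the lowest library in each. The smallest differences among the 14 were those of Mrps17 (log2 fold change -0.30, SE 0.13) and Mrpl19 (-0.37, SE 0.14).

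The only cytosolic gene listed here, Rps10 of the small subunit near the mRNA path, had the opposite sign. It had 445, 409 and 406 normalized counts in TET2 KO and 290, 386 and 284 in WT. WT replicate 2 came close to the TET2 KO libraries, and the log2 fold change was 0.39 (SE 0.18, edgeR adjusted p = 0.307).

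Mrpl10, Mrpl14, Mrpl42, Mrpl44, Mrpl57, Mrpl58, Mrps14, Mrps17 and Mrps35 were listed in both comparisons, 30% of the members listed for diet in WT and 60% of those listed for genotype on HFD. All 9 were higher in WT HFD than in WT chow and lower in TET2 KO HFD than in WT HFD. The comparisons share the 3 WT HFD libraries, so these opposite signs are not independent. TET2 KO HFD and WT chow share no library and were compared in no deposited table, so their FPKM are given side by side without a test. Mrpl58 had 3.45, 3.42 and 3.23 FPKM in WT chow, 6.11, 5.37 and 5.62 in WT HFD, and 3.05, 3.37 and 4.38 in TET2 KO HFD. Mrpl14 had 9.57, 10.6 and 11.3 FPKM in WT chow, 14.8, 13.8 and 20.5 in WT HFD, and 6.74, 10.6 and 11.9 in TET2 KO HFD. The TET2 KO HFD range overlapped the WT chow range in all 9 genes, as it did in 91.3% of the 1328 protein-coding genes that were listed in both tables and higher in WT HFD in both. The log2 ratio of their mean FPKM ran from -0.13 (Mrpl42) to 0.17 (Mrps35), with a median of 0.01.

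**Figure D2:**
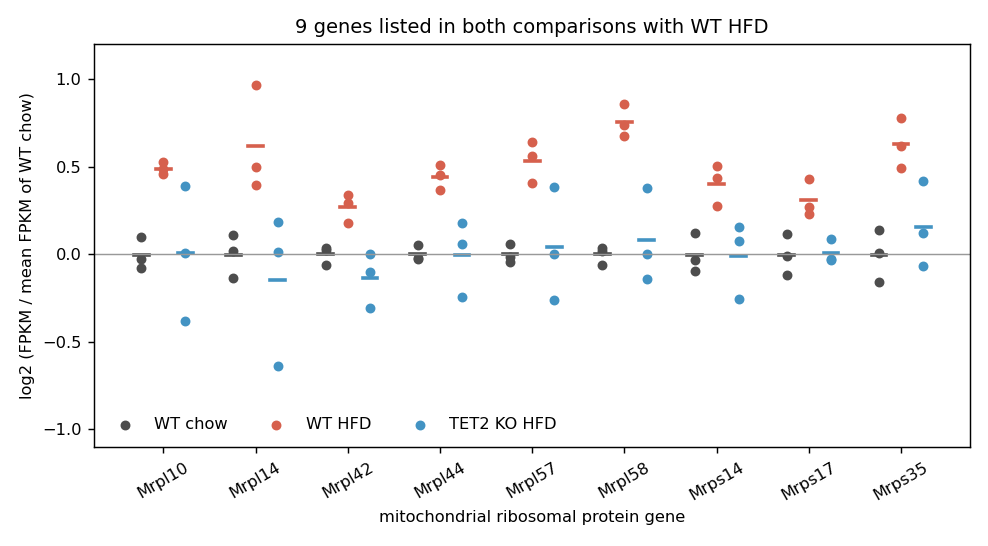
Log2 ratio of FPKM to the mean of WT chow (y axis) for the 9 mitochondrial ribosomal protein genes listed in both comparisons (x axis). Points are libraries and short lines the mean of the 3 log2 ratios of WT chow, WT HFD and TET2 KO HFD; the TET2 KO HFD points overlap those of WT chow in all 9 genes.

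In TET2 KO mice, diet gave 4 listed ribosomal protein genes, 2 higher and 2 lower on HFD. None passed an adjusted p under 0.05 in edgeR, DESeq2 or limma, beside 0.0614% of all listed genes in edgeR, 4.3% in DESeq2 and 0.0614% in limma, and all 4 had an unadjusted p under 0.05 in edgeR, beside 77% of all listed genes. The groups did not overlap in 3 of the 4, beside 72.6%. Scaling by TMM over the listed genes shifted all log2 fold changes of this table by a median of 0.25 and left these directions in place. Leaving out a library left 1 (without TET2 KO chow replicate 1 or TET2 KO HFD replicate 1) or 2 (without any other) with an unadjusted p under 0.05, while the matching shares of all listed genes were not counted.

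Rpl30, a cytosolic large-subunit protein, had 12801, 11619 and 13961 normalized counts on HFD, against 7583, 8407 and 11718 on chow. Chow replicate 3 lay within the HFD range, and the log2 fold change was 0.47 (SE 0.20, edgeR adjusted p = 0.764). Rps27rt is a retrogene whose transcript matched Rps27 at 100% of the aligned bases, so reads may be shared with Rps27, which was not tested. Rps27rt had 4105, 3553 and 3744 on HFD and 2177, 3274 and 2889 on chow (log2 fold change 0.45, SE 0.19, edgeR adjusted p = 0.740). Mrpl19 had 365, 396 and 446 on HFD against 544, 573 and 516 on chow (log2 fold change -0.44, SE 0.18, edgeR adjusted p = 0.729). Its log2 fold change was -0.18 with TMM scaling, -0.14 with a median log2 ratio of 0 and -0.11 with the GC trend removed.

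Rpl9-ps1 was the only member with values in all 12 libraries. Its FPKM were 0.594, 2.13 and 2.36 in WT chow, 0.895, 2.14 and 2.68 in TET2 KO chow, 0.306, 0.307 and 0.753 in WT HFD, and 0.538, 0.795 and 0.319 in TET2 KO HFD. In each chow group replicate 1 was the lowest. In TET2 KO the diet difference was -1.77 (log2, SE 0.53, edgeR adjusted p = 0.706). The genotype by diet interaction was 0.12 (log2, SE 0.86, edgeR adjusted p = 0.946), an estimate too wide to tell like from unlike diet responses.

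Other genes of the protein synthesis machinery did not all lie on the side of the ribosomal proteins. Of 66 ribosome biogenesis factors, which process rRNA and assemble subunits in the nucleolus, 32 were listed for diet in WT, 30 lower and 2 higher on HFD (median log2 fold change -0.37), and edgeR called 5 at an adjusted p under 0.05, all lower, a share below the 18.7% of all listed genes. The median was -0.17 with the GC trend removed and -0.58 with the expression level trend removed. Nop2, an rRNA methyltransferase, had 3497 ± 615 normalized counts on chow against 1656 ± 120 (SD, n = 3) on HFD and fell by 1.08 on the log2 scale (SE 0.15, edgeR adjusted p = 0.0357). Utp4 fell by 0.74 (SE 0.11, edgeR adjusted p = 0.0357). Between genotypes on HFD, 14 of the 66 were listed, all higher in TET2 KO (median 0.47). EdgeR called 0, as it did of all listed genes, and 7 had an unadjusted p under 0.05 (beside 82.3% of all listed genes). The groups did not overlap in 10 (beside 74.7%).

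Lists of nuclear genes for mitochondria had medians near those of all listed protein-coding genes, which were 0.36 for diet in WT and -0.40 for genotype on HFD. Of 36 mitochondrial translation and mitoribosome assembly factors, 13 were listed for diet in WT, 10 of them higher on HFD (median 0.40), and 9 for genotype on HFD, 6 of them lower in TET2 KO (median -0.37). Among the 22 nuclear genes of the respiratory chain and its assembly that were listed for diet in WT, 19 were higher (median 0.33, from 0.12 with the expression level trend removed to 0.96 with the length trend removed), such as Ndufb9 of complex I (log2 fold change 0.54, SE 0.15, edgeR adjusted p = 0.0679). EdgeR called 2 of them, beside 18.7% of all listed genes, namely Cox7a1 and Cox8b, both known from muscle and brown fat, and both lower. In TET2 KO against WT on HFD, 10 were listed and 9 were lower in TET2 KO (median -0.37, and -0.71 with the length trend removed). The listed mitochondrially encoded genes, mostly rRNAs and tRNAs, had medians of the opposite sign. For diet in WT 5 were listed, 4 of them lower (median -1.05). The lower ones were the rRNAs mt-Rnr1 and mt-Rnr2, the tRNA mt-Ti and mt-Atp6, the only listed mRNA (-0.46, edgeR adjusted p = 0.182). The tRNA mt-Tn was higher. For genotype on HFD 2 were listed, both rRNAs and both higher (median 1.02).

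The remaining lists held few listed genes. None of 12 ribosome components that the naming rule leaves out and none of 9 elongation and termination factors were listed in any comparison. For diet in WT, 4 of 39 initiation factors were listed (1 higher), and 1 of 12 other transcripts with a 5′ terminal oligopyrimidine tract. Of 31 genes of growth control, 10 were listed (6 higher), and Mycn, a Myc family factor that drives ribosome production, rose from 55.0 ± 8.17 to 117 ± 16.4 normalized counts (SD, n = 3; log2 fold change 1.09, SE 0.23, edgeR adjusted p = 0.0467).

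**Figure D3:**
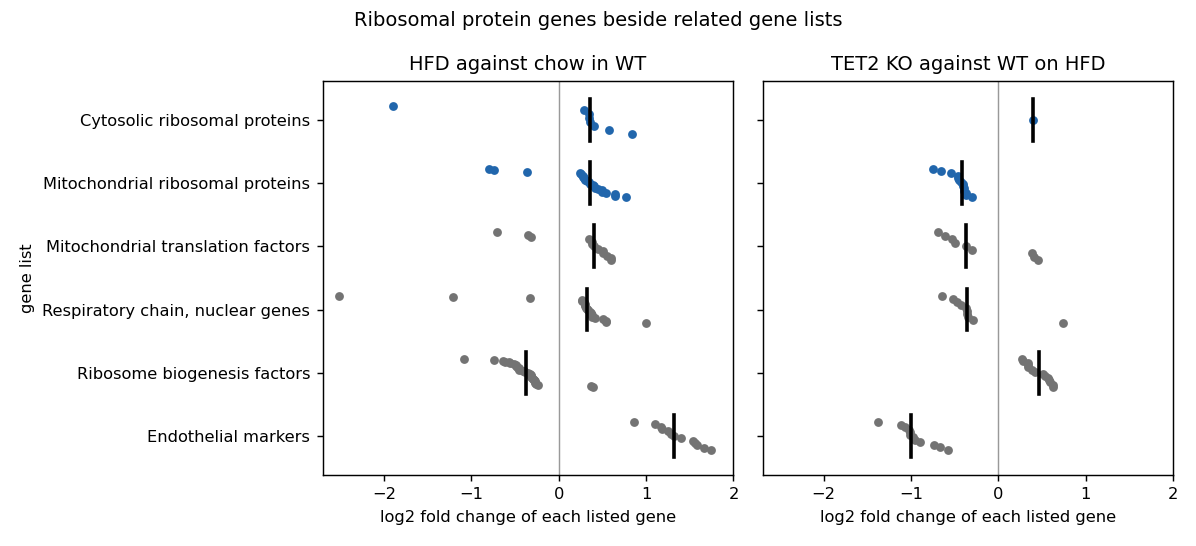
Log2 fold change (x axis) of each listed gene (points) in 6 gene lists (y axis), for diet in WT (left) and genotype on HFD (right), with black lines at the list median. The median of the mitochondrial ribosomal proteins was 0.35 on the left and -0.42 on the right, and that of the ribosome biogenesis factors -0.37 and 0.47; the panels share the WT HFD libraries.

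Markers of endothelial cells were listed in the same comparisons, though few passed the adjusted test. Of 15 markers, 13 were listed for diet in WT, all higher on HFD (median log2 fold change 1.32). This median was 1.04 without WT chow replicate 2 and 1.92 without WT chow replicate 3. EdgeR called 1 of them, Emcn (1.75, edgeR adjusted p = 0.0357), beside 18.7% of all listed genes, and the groups did not overlap in 10, beside 86.5%. For genotype on HFD 12 were listed, all lower in TET2 KO (median -0.998), with 0 called by edgeR, as of all listed genes. An unadjusted p under 0.05 was reached by 10, beside 82.3% of all listed genes, and the groups did not overlap in 3, beside 74.7%. For diet in TET2 KO, 1 of the 15 markers was listed, Emcn, higher on HFD (0.98, edgeR adjusted p = 0.706). Per length, the most abundant was Cldn5, of endothelial tight junctions, at a mean of 253 FPKM over the WT libraries. Summed over the 13 markers, reads per M were 1509, 1338 and 3511 in WT chow and 6483, 5509 and 3549 in WT HFD, and none of the listed markers, Cdh5 and Pecam1 included, was at or near 0. The 22 listed mitochondrial ribosomal protein genes summed to 381, 409 and 388 in WT chow and 447, 458 and 456 in WT HFD. These genes were listed because they differ between the groups, so the gap between the group sums describes the listing and says nothing about the markers. The 8 cytosolic genes summed to 2007, 1762 and 1865 in WT chow and 2184, 2747 and 2349 in WT HFD.

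For genotype on HFD, the 12 listed markers summed to 3397, 1946 and 1955 reads per M in TET2 KO and 6008, 4803 and 3303 in WT. The 14 mitochondrial ribosomal protein genes summed to 148, 174 and 201 in TET2 KO and 238, 234 and 242 in WT. TET2 KO replicate 1 had the highest marker sum and the lowest ribosomal protein sum of its group. The part of cell composition in the ribosomal protein values was not tested, and in such bulk samples more cells of a type and more RNA per cell cannot be told apart.

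**Figure D4:**
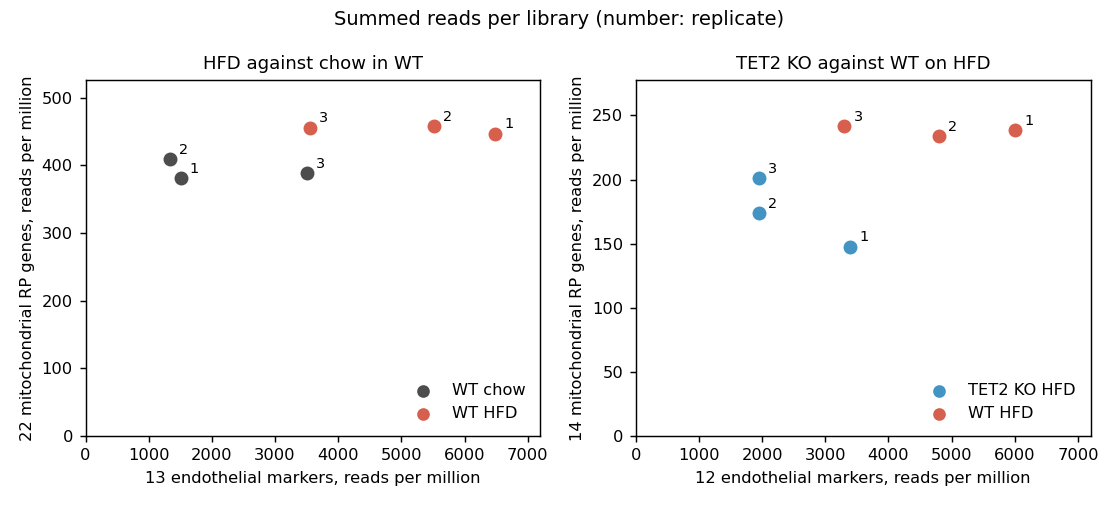
Summed reads per M of listed mitochondrial ribosomal protein genes (y axis) against those of listed endothelial markers (x axis) in each library, for diet in WT (left) and genotype on HFD (right). Points are libraries marked with the replicate number. On the left the marker sums run from 1338 to 3511 in WT chow and from 3549 to 6483 in WT HFD; the gap on the y axis follows from how the genes were listed.

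Markers of other cell types and other RNA classes were also listed. Of 10 NK cell genes 9 were listed for diet in WT, all higher on HFD (median log2 fold change 1.52), and 6 were called by edgeR, beside 18.7% of all listed genes, such as Nkg7 (1.39, SE 0.19, edgeR adjusted p = 0.0357). Of 14 monocyte and macrophage genes 8 were listed, 5 of them higher, and 4 were called, with Cx3cr1, Ccr2 and Csf1r higher and Marco lower. Of 15 lung epithelial genes 7 were listed, 4 of them higher, and Ager and Hopx were called, both higher. Of 13 genes of fibroblasts and smooth muscle 5 were listed, 4 of them higher, and Pdgfrb was called higher and Tagln lower. None was called among the listed genes of T cells (3 of 14, all higher), neutrophils (1 of 10, lower), mesothelium (2 of 8, both lower) or erythroid cells and platelets (2 of 10, 1 higher), and no gene of B cells was listed (0 of 10).

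For genotype on HFD few genes of these lists were listed and edgeR called 0, as it did of all listed genes. The lung epithelial genes Ager (log2 fold change -1.06) and Hopx (-0.73) and the monocyte receptor Ccr2 (-1.05) were lower in TET2 KO without overlap of the groups. Such overlap was also absent in 74.7% of all listed genes. Ncr1, a receptor of NK cells, was also lower (-1.14), and Msln, of mesothelium, was higher (0.96), both with overlap. For diet in TET2 KO, 7 of 8 mesothelial genes were listed, 6 of them higher on HFD (median 1.94), and 5 of 13 genes of fibroblasts and smooth muscle, all higher (median 1.21). Listed genes of T cells (5 of 14, median -0.62) and of monocytes and macrophages (5 of 14, median -0.71) were all lower. EdgeR called 0 in each of these lists, beside 0.0614% of all genes listed for diet in TET2 KO.

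The mitochondrial rRNAs, which have no long poly(A) tail, were called lower on HFD. On the log2 scale mt-Rnr1 fell by 1.70 (SE 0.30, edgeR adjusted p = 0.0368) and mt-Rnr2 fell by 1.05 (SE 0.22, edgeR adjusted p = 0.0446). On HFD, TET2 KO against WT had mt-Rnr1 at a log2 fold change of 1.26 (SE 0.37) and mt-Rnr2 at 0.78 (SE 0.19), both with an edgeR adjusted p of 0.237. Of the 1839 genes listed for diet in WT without protein-coding type 83.1% were lower on HFD. Of the 943 such genes listed for genotype on HFD, 83.5% were higher in TET2 KO. Whether RNA composition had a part in the ribosomal protein values was not tested.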

How the data were processed

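Poly(A) RNA of CD31+ lung cells from 12 mice was sequenced as paired-end libraries. Per the labels and methods, the authors aligned reads to mm10 with HISAT2, summed them over genes with featureCounts and ran DESeq2. Versions, annotation release and use of strand are not given in the sources used here. The authors deposited 4 pairwise tables with raw read counts, a normalized signal (each count divided by its library's DESeq2 size factor in that table) and FPKM. The deposited log2 fold changes, p-values and adjusted p-values are the authors' own results and are not reported. They served only to test that listing ended at an unadjusted p of 0.05 and to recover how many genes were adjusted: 18463 for genotype on chow, 23768 for diet in WT, 18703 for genotype on HFD and 19511 for diet in TET2 KO. Each printed fold change was refitted.

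Groups and replicates follow the sample labels, and each group had 3 mice. Counts of the listed genes were fitted with edgeR 4.0.16 (R 4.3.3; quasi-likelihood test, without covariates, only the 2 groups compared). Effective library sizes came from the deposited size factors. Benjamini-Hochberg adjustment was over the recovered number of genes, called under 0.05. The spread was estimated from listed genes alone, which were selected for their difference. The interaction was fitted on the 975 genes with counts in all 12 libraries. Normalized counts were compared within a table, and FPKM also across tables. Library totals recovered from count, length and FPKM were 36.7 to 56.8 M reads (M for 1000000) on genes, so for all but the genes with few reads the spread between mice limits precision.

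On simulated counts of the WT diet comparison (6559 genes), edgeR recovered 20 of 100 genes changed by 1 (log2) and 0 of 100 changed by 0.4, with 1 false call. DESeq2 recovered 49 and 3, with 23 false calls. For genotype on HFD (3631 genes), edgeR recovered 11 and 0, with 2 false calls. Unlike the listed genes, the simulated ones were not selected for a difference, and they were adjusted over their own number only. These rates therefore do not carry over to the calls reported here.

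Alternatives were DESeq2 1.42.0, limma-trend (limma 3.58.1, pseudocount 1), a mean normalized count of at least 10, library totals, TMM or a median log2 ratio of 0 as scaling, the replicate number as a block, leaving out each library, an unadjusted p, and a gene length trend removed by lowess (span 0.5). Trends on transcript GC content and on mean FPKM, the counts by unadjusted p and by direction, and the medians of the other lists were added after seeing the data.

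The members and gene lists were chosen with earlier results of these data known. Named genes are, in each comparison and among listed members, the 3 with the lowest edgeR p of each of Rpl, Rps, Mrpl and Mrps, the 3 highest and 3 lowest log2 fold changes among those averaging 50 or more normalized counts, those of the less common direction where 5 or fewer, and the 3 with the highest mean FPKM. Mrpl3, Mrpl34, Mrpl42, Mrpl44, Mrpl52, Mrpl57, Mrps27 and genes outside the ribosome were named after their values were seen. Promoters were taken from RefSeq, transcripts and gene types from GENCODE M21, with summaries in Python 3.11.15.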

Additional observations from a re-analysis of the deposited data

How the results depend on the processing

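All 26 genes higher on HFD in WT and all 14 lower in TET2 KO on HFD kept that count under every test, scaling, filter, left-out library and trend listed under processing, and so did the 2 higher on HFD in TET2 KO. Listing had required a difference in these same libraries, so these directions were nearly fixed in advance and are no support. The number called was not kept. For diet in WT it was 2 in the reported fit, 15 with DESeq2 (which called 62.6% of all listed genes), 6 with limma-trend (29%), 4 with a median log2 ratio of 0, 1 with genes under a mean count of 10 left out, 0 with the replicate block, 0 to 1 with a library left out and 27 by unadjusted p. For TET2 KO against WT on HFD it was 0, 1 with DESeq2 (14.6% of all listed genes) and 10 by unadjusted p, and for diet in TET2 KO 0, and 4 by unadjusted p. The number with an unadjusted p under 0.05 for diet in WT was 27, with 17 under TMM, 14 under the replicate block and 12 to 18 with a library left out. For genotype on HFD it was 10, with 6 under TMM or a median log2 ratio of 0 and 3 to 12 with a library left out. For diet in TET2 KO it was 4, with 2 under the replicate block and 1 to 2 with a library left out. Shares of all listed genes were counted only for the reported fit, DESeq2 and limma-trend. A lower number under another setting is thus not shown to be particular to the members. The causes were not tested.

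For diet in WT the median log2 fold change of cytosolic genes was 0.36, and 0.99, 0.57 and 0.13 with the gene length, GC content or expression level trend removed. That of mitochondrial genes was 0.35, and 0.52, 0.50 and 0.19. For diet in TET2 KO the cytosolic median of 3 genes was 0.71 under TMM and 0.75 with a median log2 ratio of 0. These scalings shifted all log2 fold changes of that table by a median of 0.25 and 0.30. The single mitochondrial gene, Mrpl19, was at -0.18 and -0.14 under these scalings, and at -0.17, -0.11 and -0.15 with the 3 trends removed. For TET2 KO against WT on chow, the single listed ribosome biogenesis factor went from -0.31 to 0.000873 with the GC trend removed. The median of 2 respiratory chain genes went from -0.45 to 0.33 with the length trend removed. The interaction of Rpl9-ps1 ran from -0.23 to 0.67.

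Same-numbered libraries did not deviate together: the correlations of their deviations from the group means ran from -0.14 to 0.21, and with such numbers only a label is shared. Few reads limit Rpl9-ps1 and Rpl3l.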

Other observations

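Listed pseudogenes of ribosomal proteins are kept apart from the genes above. For diet in WT 19 were listed, 12 lower and 7 higher on HFD, with a median log2 fold change of -1.58. Of the 14 averaging under 50 normalized counts 11 were lower, and of the 5 at or above it 4 were higher, a split made after the values were seen and not tested, among them Rpl34-ps1 (0.32) and Rps10-ps2 (0.35). EdgeR called 4 at an adjusted p under 0.05, all lower, beside 18.7% of all listed genes, among them Rps7-ps2 (-1.97, SE 0.28, edgeR adjusted p = 0.0357), the single lower one of those at or above 50. Other listed pseudogenes were also mostly lower (330 of 390, median -1.80). For TET2 KO against WT on HFD 6 were listed, 4 of them higher in TET2 KO, among them Rpl31-ps6 (1.99, SE 0.43, edgeR adjusted p = 0.237). Of the 2 averaging 50 or more normalized counts there, and of the 2 for diet in TET2 KO, 1 was higher and 1 lower in each comparison. Reads of a pseudogene may come from its parent gene, and the assignment of such reads was not tested.

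The listed genes outside the ribosome whose log2 FPKM followed the mean of the 30 members' standardised log2 FPKM most closely over the 6 WT libraries were 4930500M09Rik (Pearson r 0.998), Gm8828 (0.995), Eno3 (0.993), Olfr750 (0.993) and Cby1 (0.992). They are the best of all listed genes over only 6 libraries of 2 groups, and these values describe the libraries without a test.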
